A study of Mus musculus with 9 samples.

Results

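The 9 genes described here encode G protein-coupled receptors of endothelial cells, or, for Ramp2, the partner protein that such a receptor needs. They were chosen by name and not by their values: S1pr1, Lpar6, Calcrl, Ramp2, Ednrb, Aplnr, F2r, Adgrf5 and Adgrl4. All 9 were among the 11802 genes of the deposited table. The study sequenced ribosome-bound RNA from endothelial cells of mouse white adipose tissue, in 5 libraries labelled KO and 4 labelled WT, to compare endothelium with and without Mfn2, a mitofusin of the outer mitochondrial membrane. The KO mice had the genotype Pdgfb-iCreERT2:Mfn2iΔEC:Rpl22HA, and the WT mice had the genotype Pdgfb-iCreERT2:Rpl22HA. Both groups therefore carried the Pdgfb-iCreERT2 driver, an inducible Cre recombinase active in endothelial cells, and the Rpl22HA (RiboTag) allele, whose tagged ribosomal protein was used to pull down ribosomes with their RNA. RNA that was not captured was not analysed here, so how far a gene was enriched by the pull-down is unknown. Age, sex and Cre induction are not stated in the labels, and the replicates are called biological with no animal named, so the p-values speak only of how these libraries vary.

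G protein-coupled receptors cross the membrane and pass a signal from a bound ligand to heterotrimeric G proteins. In endothelium they sense lipids (S1pr1, Lpar6), peptides (Calcrl with Ramp2, Ednrb, Aplnr) and proteases (F2r), and they govern barrier tightness, vessel tone and vessel growth. Adhesion receptors such as Adgrf5 and Adgrl4 have a long extracellular part that is cut from the membrane-spanning part within the cell.

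Adgrf5 and Adgrl4 were the genes whose libraries did not overlap between groups, and the sequences upstream of their starts are shown for that reason. The windows are the 250 bases before a RefSeq start (build GRCm38.p6, both on the plus strand), at chr17:43360181-43360430 for Adgrf5 and chr3:151437632-151437881 for Adgrl4. Capitals mark AGGAAG or its reverse complement CTTCCT, a core recognised by ETS factors, a family with members that act in endothelium.
Adgrf5: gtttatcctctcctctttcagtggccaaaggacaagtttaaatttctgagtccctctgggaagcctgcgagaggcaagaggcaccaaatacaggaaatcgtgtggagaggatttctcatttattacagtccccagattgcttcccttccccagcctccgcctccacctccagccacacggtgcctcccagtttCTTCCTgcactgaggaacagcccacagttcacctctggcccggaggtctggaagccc
Adgrl4: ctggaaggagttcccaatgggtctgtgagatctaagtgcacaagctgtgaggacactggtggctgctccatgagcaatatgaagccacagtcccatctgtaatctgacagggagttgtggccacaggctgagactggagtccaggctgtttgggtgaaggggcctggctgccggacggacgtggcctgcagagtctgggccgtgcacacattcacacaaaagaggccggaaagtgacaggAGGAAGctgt
Each window shown held 1 match, on opposite strands. Adgrf5 has a further RefSeq start, inside the gene, whose window held 0 matches and is not shown. A match is common: 29.5% of 32851 RefSeq windows of the same length held one on either strand. Of the 6 receptor genes with a RefSeq window, Calcrl also held 1 match, and F2r, Lpar6 and Ednrb held 0. The forkhead sequence TGTTTAC, with its reverse complement GTAAACA, was in none of these windows and in 3.17% of all windows. These matches describe letters and not bound sites.

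The libraries differed in ways that touch every result below. Listed reads ran from 1615968 to 3829356 in KO libraries and from 1034753 to 2501048 in WT libraries. The mitochondrial ribosomal RNAs mt-Rnr1 and mt-Rnr2 took 12.6% to 24.8% of the reads of KO libraries, 47.0% to 64.2% of those of WT replicates 1 to 3, and 13.6% of those of WT replicate 4. In WT replicate 4 Malat1, a nuclear noncoding RNA, took 18.1%. The targeted gene did not separate the labels, since Mfn2 was at 66.7 ± 37.0 CPM in KO libraries (SD, n = 5) and 36.1 ± 15.0 CPM in WT libraries (SD, n = 4; limma adjusted p = 0.131), and the removed exons are not named in the labels. Every group name below therefore rests on the labels.

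Values are given as deposited, in CPM (the count of a gene scaled to a common library total), and fold changes are KO over WT on the log2(CPM + 1) scale, which understates the change of low genes. In the deposited CPM the median log2 fold change over all genes was 1.10, and 32.0% of the 11802 genes were called higher in KO (limma, Benjamini-Hochberg adjusted p under 0.05). Each change is therefore also given relative to the library median, after subtracting each library's median log2 value. On that scale the median over all genes was 0.12, and 13 genes (0.11%) were called in either direction. On a further scale the mean log2 value of a list of endothelial marker genes was subtracted from each library.

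Of the 9 genes, 5 were called higher in KO libraries in the deposited CPM (Calcrl, Adgrl4, Adgrf5, S1pr1 and Ramp2), beside 32.0% of all genes, and none was called lower (0.203% of all genes). Lpar6, Aplnr, F2r and Ednrb were not called. The median log2 fold change of the 9 was 1.34 in the deposited CPM and 0.37 relative to the library median, where 0 of the 9 were called higher by limma (0.0339% of all genes) and 4 had an unadjusted p under 0.05 and were higher (Calcrl, Adgrl4, Adgrf5 and S1pr1; 5.99% of all genes). On the reads recovered from the CPM, edgeR with TMM called none of the 9 (0.0424% of all genes in either direction), and DESeq2 called Adgrf5 (adjusted p = 0.0322) and Adgrl4 (adjusted p = 0.0405), beside 31 (0.773%) called higher of the 4009 genes to which it gave an adjusted p, among them 5 of the 9. The number of all genes called higher, 3780, was 1689 without KO replicate 3, 2091 without KO replicate 4, 1831 without KO replicate 5, 1094 without WT replicate 1, 1799 without WT replicate 3 and 5916 without WT replicate 4. Of the 9 genes, 4 to 6 were called when 1 library was left out.

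**Figure D1:**
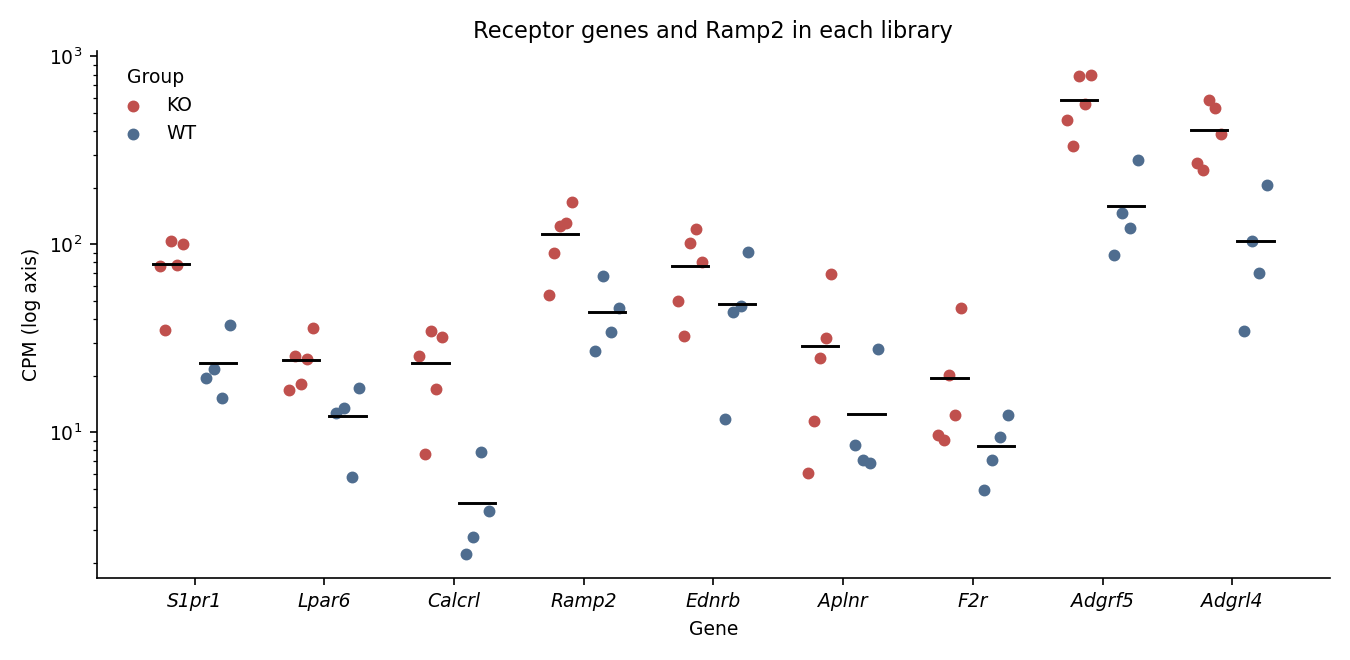
CPM of each gene (log axis) in the 5 KO libraries and the 4 WT libraries, with a black line at the group mean. The points of Adgrf5 and Adgrl4 do not overlap between groups, while those of the other 7 genes do. Of all genes, 18.7% had every KO library above every WT library.

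The adhesion receptor genes had the highest CPM of the 9 genes in every library, and their groups did not overlap. Adgrf5 encodes GPR116, known for its part in lung surfactant balance and present in the endothelium of many organs (ENSMUSG00000056492; GRCm38 chromosome 17, 43360451 to 43459557, plus strand). It had 457.75, 334.95, 789.48, 554.62 and 798.93 CPM in KO replicates 1 to 5, against 87.3, 145.98, 122.38 and 280.34 CPM in WT replicates 1 to 4. Every KO library lay above every WT library, and the highest WT library was replicate 4. Adgrf5 rose by 1.94 on the log2 scale in the deposited CPM (SE 0.410, limma adjusted p = 0.00364), with a change of 0.96 (SE 0.271, limma adjusted p = 0.161) relative to the library median. In the relative values the KO libraries ran from 4.24 to 5.14 and the WT libraries from 3.56 to 4.04 on the log2 scale, again without overlap.

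Adgrl4, also called ELTD1, is an endothelial adhesion receptor linked to vessel growth (ENSMUSG00000039167; chromosome 3, 151437887 to 151545086, plus strand). It had 272.28, 248.46, 582.82, 529.44 and 384.55 CPM in KO replicates 1 to 5, against 34.65, 104.05, 70.38 and 207.16 CPM in WT replicates 1 to 4. The groups did not overlap here either, and WT replicate 4 was again the highest WT library. Adgrl4 rose by 2.15 on the log2 scale as deposited (SE 0.430, limma adjusted p = 0.00285), with a change of 1.17 (SE 0.312, limma adjusted p = 0.146) relative to the library median, where KO libraries ran from 3.68 to 4.70 and WT libraries from 2.29 to 3.60. Without KO replicate 1 the relative change was 1.28 and was called (limma adjusted p = 0.0491). Of all genes, 18.7% had every KO library above every WT library in CPM and 2.07% in relative values.

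S1pr1 and Lpar6 are the lipid receptors. S1pr1 binds sphingosine 1-phosphate and keeps endothelial junctions tight (ENSMUSG00000045092; chromosome 3, 115710433 to 115715072, minus strand). It had 76.49, 34.88, 103.51, 77.31 and 100.32 CPM in KO replicates 1 to 5, against 19.35, 21.76, 15.23 and 37.06 CPM in WT replicates 1 to 4. In CPM, 4 of the 5 KO libraries lay above all WT libraries, and KO replicate 2 lay just below WT replicate 4. S1pr1 rose by 1.69 on the log2 scale in the deposited CPM (SE 0.443, limma adjusted p = 0.00932), and its change relative to the library median was 0.71 (SE 0.327, limma adjusted p = 0.405).

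Lpar6 is a receptor for lysophosphatidic acid (ENSMUSG00000033446; chromosome 14, 73237895 to 73243294, plus strand). It had 16.7, 25.32, 18.03, 24.6 and 36.01 CPM in KO replicates 1 to 5, against 12.6, 13.45, 5.78 and 17.11 CPM in WT replicates 1 to 4. KO replicate 1 fell within the WT range and the other KO libraries lay above it. The log2 fold change was 0.96 as deposited (SE 0.510, limma adjusted p = 0.120), and it was −0.02 relative to the library median (95% interval −0.89 to 0.85). Lpar6 lies inside Rb1, the retinoblastoma gene, on the other strand, with 408 bases of exon in common. The library kit does not mark strand, so over those bases a read could belong to either gene. Rb1 itself was at 31.8 ± 7.52 CPM in KO libraries (SD, n = 5) and 12.3 ± 5.10 CPM in WT libraries (SD, n = 4), and was called higher as deposited (limma adjusted p = 0.0339). Relative to the library median the log2 fold change of Rb1 was 0.39 (limma adjusted p = 0.769).

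Calcrl and Ramp2 form the adrenomedullin receptor, in which Ramp2 sets the ligand preference of Calcrl and carries it to the membrane. Calcrl (ENSMUSG00000059588; chromosome 2, 84330626 to 84425411, minus strand) had 25.5, 7.65, 34.62, 16.98 and 32.15 CPM in KO replicates 1 to 5, against 2.25, 2.77, 7.88 and 3.8 CPM in WT replicates 1 to 4. These were 84, 16, 96, 29 and 125 reads in the KO libraries and 5, 7, 15 and 4 reads in the WT libraries, so the WT level rests on few reads. KO replicate 2 lay just under WT replicate 3, and the other KO libraries lay above every WT library. The log2 fold change of Calcrl was 2.19 as deposited (SE 0.582, limma adjusted p = 0.0100), and it was 1.21 relative to the library median (SE 0.507, limma adjusted p = 0.357). With a pseudocount of 5 the deposited change was 1.55. DESeq2 gave it no adjusted p.

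Ramp2 (ENSMUSG00000001240; chromosome 11, 101246028 to 101259546, plus strand) had 53.73, 90.31, 125.51, 129.43 and 168.74 CPM in KO replicates 1 to 5, against 27, 67.65, 34.14 and 45.61 CPM in WT replicates 1 to 4. KO replicate 1 lay below WT replicate 2, and the other KO libraries lay above every WT library. Its log2 fold change was 1.34 as deposited (SE 0.424, limma adjusted p = 0.0200), and it was 0.37 relative to the library median (SE 0.332, limma adjusted p = 0.712), and it was −0.14 with the endothelial list mean subtracted. Its deposited call was lost without KO replicate 3 (limma adjusted p = 0.0536), KO replicate 4 (0.0515), KO replicate 5 (0.0566), WT replicate 1 (0.0735) or WT replicate 3 (0.0569). Ramp2 shares 1103 bases of exon with Vps25 on the same strand, and how reads there were assigned is not known from the labels.

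Ednrb and Aplnr are receptors for the peptides endothelin and apelin. Ednrb (ENSMUSG00000022122; chromosome 14, 103814625 to 103844402, minus strand), which in endothelium couples endothelin to nitric oxide release, had 49.78, 32.49, 100.98, 120.65 and 80 CPM in KO replicates 1 to 5, against 11.7, 43.52, 46.75 and 91.23 CPM in WT replicates 1 to 4. The groups overlapped widely, with 2 KO libraries above all WT libraries. The log2 fold change was 0.82 as deposited (SE 0.477, limma adjusted p = 0.153), and it was −0.15 relative to the library median (95% interval −0.94 to 0.63). With 1 library left out the deposited change ran from 0.27 without WT replicate 1 (limma adjusted p = 0.656) to 1.23 without WT replicate 4, where it was called (limma adjusted p = 0.0334).

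Aplnr (ENSMUSG00000044338; chromosome 2, 85136225 to 85139923, plus strand), the apelin receptor of growing vessels, had 6.07, 11.47, 24.89, 31.63 and 69.45 CPM in KO replicates 1 to 5, against 8.55, 7.12, 6.83 and 27.56 CPM in WT replicates 1 to 4. It varied widely within each group, with the lowest of all 9 libraries in KO. The log2 fold change was 0.94 as deposited (SE 0.580, limma adjusted p = 0.174), and it was −0.03 relative to the library median (95% interval −1.14 to 1.08).

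F2r encodes PAR1, the receptor that thrombin activates by cutting it (ENSMUSG00000048376; chromosome 13, 95601803 to 95618487, minus strand). It had 9.71, 9.08, 20.2, 12.3 and 46.04 CPM in KO replicates 1 to 5, against 4.95, 7.12, 9.45 and 12.35 CPM in WT replicates 1 to 4. KO replicates 3 and 5 lay above every WT library and the other 3 lay within the WT range. The log2 fold change was 0.91 as deposited (SE 0.567, limma adjusted p = 0.180), and it was −0.07 relative to the library median (95% interval −1.05 to 0.92).

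**Figure D2:**
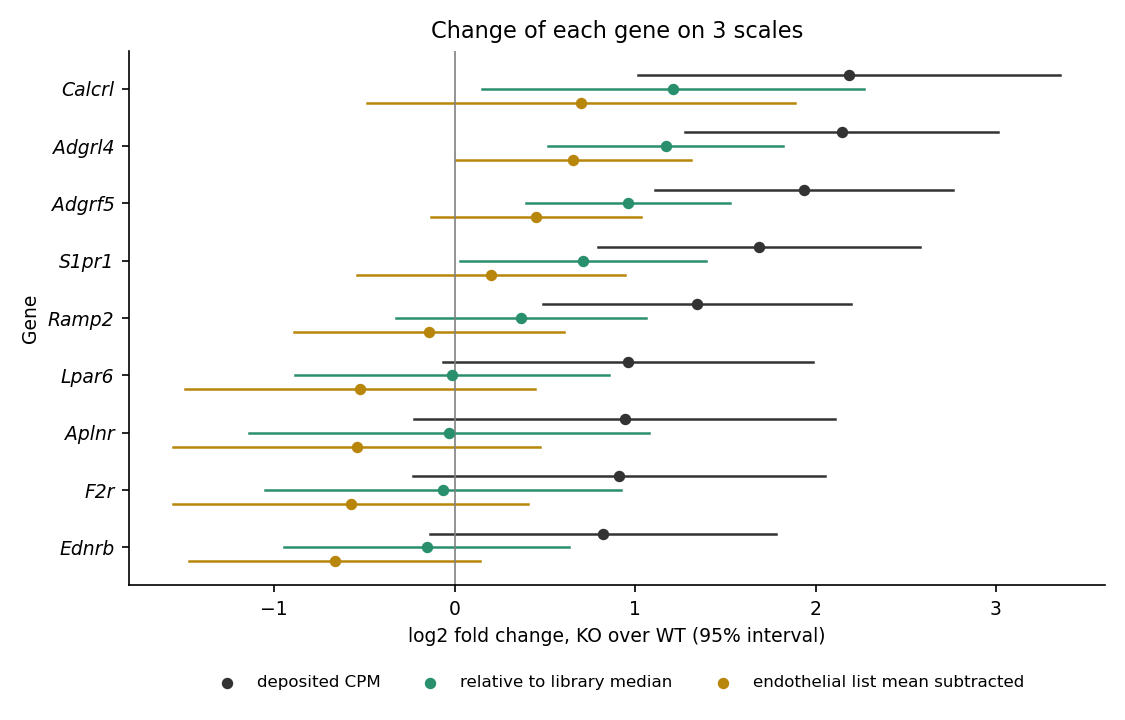
Log2 fold change of each gene, KO over WT, with its 95% interval, in the deposited CPM, relative to the library median and with the endothelial list mean subtracted. The estimates of Calcrl, Adgrl4, Adgrf5 and S1pr1 lie above 0 on all 3 scales, and those of Ednrb, F2r, Aplnr and Lpar6 only in the deposited CPM. With the endothelial list mean subtracted the intervals of Calcrl, Adgrf5 and S1pr1 include 0. The intervals of Ednrb, F2r, Aplnr and Lpar6 include 0 on every scale.

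General endothelial markers were also higher in the KO libraries. The 25 listed genes of a 26-gene endothelial list summed to between 3970 and 9206 CPM in KO libraries and between 1331 and 4561 CPM in WT libraries. As deposited, 21 of the 25 were called higher, beside 32.0% of all genes. Relative to the library median 0 of the 25 were called. There 24 of the 25 had a change above 0, beside 57.9% of all genes, with a median log2 fold change of 0.53. Pecam1, a junction protein that marks endothelium, was at 474.7 ± 168 CPM in KO libraries (SD, n = 5) and 183.8 ± 122 CPM in WT libraries (SD, n = 4). In these bulk captures more endothelial cells and more RNA per cell in the KO libraries cannot be told apart. With the mean of that list subtracted from each library, the log2 changes of the 9 genes ran from 0.70 for Calcrl to −0.66 for Ednrb, and none was called (limma adjusted p from 0.365 to 0.900). With the share of reads in mt-Rnr1 and mt-Rnr2 added to the fit as a covariate, the deposited changes were 1.83 for Calcrl, 1.05 for S1pr1, 1.04 for Adgrf5 and 0.92 for Adgrl4, and none of the 9 was called. With the mitochondrial rRNAs left out of the library total Adgrl4 kept its call (log2 fold change 1.56, limma adjusted p = 0.0446), and Adgrf5, at 1.34, did not (limma adjusted p = 0.0539).

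The summed CPM of the 9 genes were 968, 795, 1800, 1497 and 1716 in KO replicates 1 to 5 and 208, 413, 319 and 722 in WT replicates 1 to 4. Set against the endothelial sum of the same library, they came to 24.3%, 20.0%, 19.6%, 19.4% and 19.0% in KO replicates 1 to 5 and 15.7%, 16.4%, 18.1% and 15.8% in WT replicates 1 to 4. The KO shares lay above the WT shares in every library. Adgrf5 and Adgrl4 made up on average 73.3% of the sum in KO libraries and 61.7% in WT libraries. The shares therefore mostly follow that pair and do not describe each of the 9 genes. With the endothelial list mean subtracted, Calcrl, Adgrl4, Adgrf5 and S1pr1 had positive log2 changes (0.20 to 0.70). Those of Ednrb, F2r, Aplnr, Lpar6 and Ramp2 were negative (−0.66 to −0.14). These shares were computed after the values were seen and are given without a test.

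**Figure D3:**
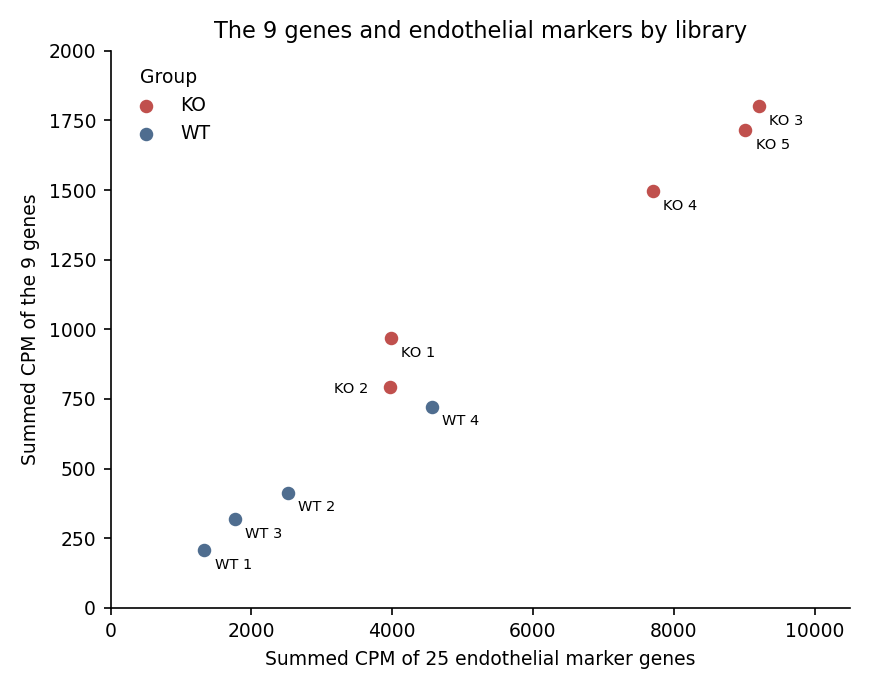
Summed CPM of the 9 genes against the summed CPM of 25 endothelial marker genes, with 1 point for each KO and WT library. Libraries with a higher endothelial marker sum mostly had a higher sum of the 9 genes. WT replicate 4 lies nearest to KO replicates 1 and 2. Its endothelial sum was higher than theirs (4561 against 3976 and 3970 CPM), and its sum of the 9 genes was lower (722 against 968 and 795 CPM).

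Most of this sum came from the adhesion receptors. Adgrf5 and Adgrl4 together made up 73.3% ± 2.86 of the 9 genes' CPM in KO libraries (SD, n = 5; 69.0% to 76.2%) and 61.7% ± 3.95 in WT libraries (SD, n = 4; 58.5% to 67.5%). Ednrb took 5.51% ± 1.53 in KO libraries and 10.9% ± 3.88 in WT libraries, and Ramp2 took 8.47% ± 2.29 in KO libraries and 11.6% ± 4.21 in WT libraries. The pair was singled out after its values were seen, so no test is given.

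**Figure D4:**
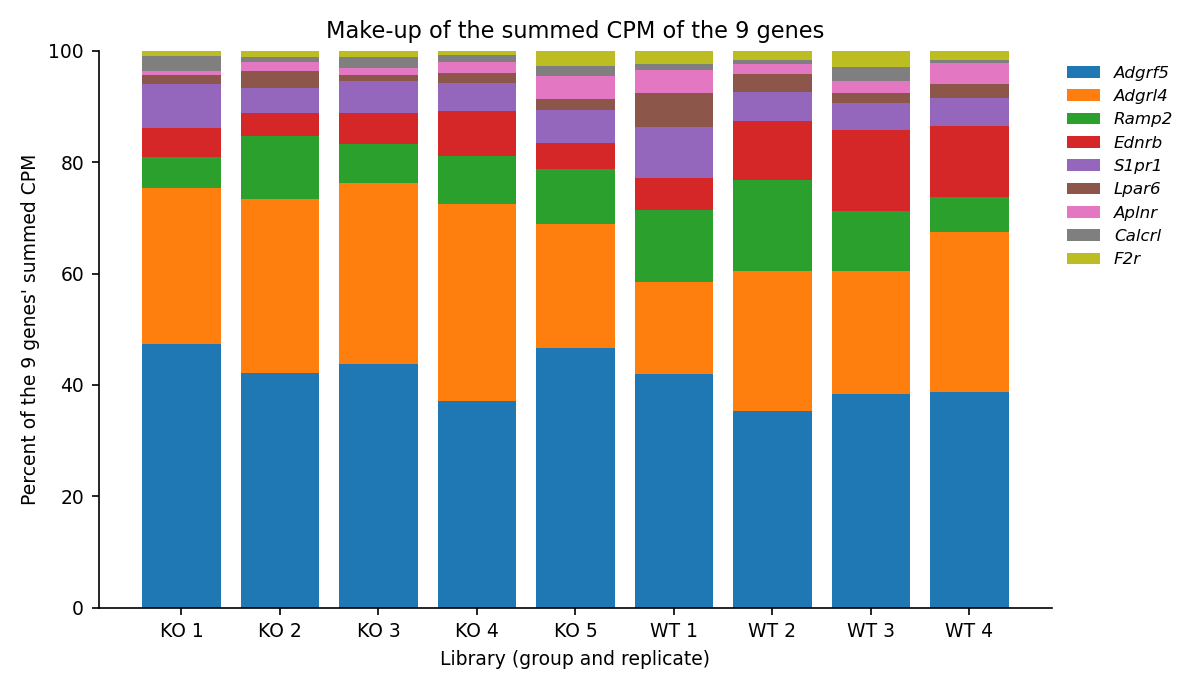
Percent of the 9 genes' summed CPM taken by each gene, with 1 bar for each KO library and then each WT library. Adgrf5 and Adgrl4 together fill 69.0% to 76.2% of the KO bars and 58.5% to 67.5% of the WT bars.

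Ratios of 2 genes were taken within each library on log2(CPM + 1), so the library total cancels for abundant genes but not fully for low ones. None of 15 such ratios passed an exact two-sided permutation test over all 126 assignments of the labels after adjustment. The smallest possible p was 0.00794, so over 15 ratios no single ratio could have passed alone. The absence of a call therefore does not show that the ratios were equal. The smallest p-values were those of Adgrl4 to Pecam1 and Adgrf5 to Pecam1. The mean log2 ratio of Adgrl4 to Pecam1 was −0.24 ± 0.315 in KO libraries (SD, n = 5) and −0.90 ± 0.49 in WT libraries (SD, n = 4), a difference of 0.67 (exact permutation p = 0.0317, adjusted 0.357), with 4 KO libraries above all WT libraries. For Adgrf5 to Pecam1 the mean log2 ratio was 0.31 ± 0.258 in KO libraries and −0.15 ± 0.259 in WT libraries, a difference of 0.46 (exact permutation p = 0.0476, adjusted 0.357).

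Receptors were also set against their partners and ligands. The log2 ratio of Ramp2 to Calcrl was 2.30 ± 0.911 in KO libraries (SD, n = 5) and 3.14 ± 0.904 in WT libraries (SD, n = 4), a difference of −0.84 (exact permutation p = 0.214, adjusted 0.459). Ednrb to its ligand gene Edn1, which was at 0 in WT replicate 1, differed by −0.33 (exact permutation p = 0.635) and by 0.14 with a pseudocount of 5, Aplnr to its ligand gene Apln by 0.18 (exact permutation p = 0.659), and F2r to Thbd, the thrombin-binding thrombomodulin gene, by −0.09 (exact permutation p = 0.873). The ratio of Adgrl4 to Adgrf5 differed by 0.21 (exact permutation p = 0.444), within the spread of either group.

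Levels of the 9 genes were put in order per kilobase of merged exon. In KO libraries the level was 88.0 ± 32.6 CPM per kb for Adgrl4, 65.2 ± 22.7 for Adgrf5, 34.4 ± 13.2 for Ramp2, 25.8 ± 9.01 for S1pr1 and 17.998 ± 8.46 for Ednrb (SD, n = 5). In WT libraries the level was 22.7 ± 16.2 CPM per kb for Adgrl4, 17.6 ± 9.37 for Adgrf5, 13.2 ± 5.38 for Ramp2, 7.67 ± 3.13 for S1pr1 and 11.3 ± 7.67 for Ednrb (SD, n = 4). Aplnr, F2r, Lpar6 and Calcrl followed, at 4.47 to 7.76 CPM per kb in KO libraries and 0.855 to 3.38 CPM per kb in WT libraries. Over the 9 libraries, KO and WT pooled, 2 neighbouring steps of this order differed beyond the spread. They were Adgrf5 above Ramp2 and Ednrb above Aplnr (exact sign-flip permutation, adjusted p = 0.0469 each). The neighbours and the direction of each step were set by the same values that were tested, so the p-values are no independent check of the order. The other 6 neighbouring pairs did not (adjusted p from 0.0703 to 0.547). No neighbouring pair passed when any library other than WT replicate 1 was left out. Per kilobase of mean coding transcript Ramp2 was at 157.7 CPM in KO libraries, below Adgrl4 at 171.6, and at 60.6 CPM in WT libraries, above Adgrl4 at 44.2. That pair did not differ over the 9 libraries beyond the spread (exact sign-flip permutation, adjusted p = 0.638). Adgrf5 was then below Ramp2, at 150.2 CPM in KO libraries and 40.7 CPM in WT libraries, so the step of Adgrf5 above Ramp2 was not kept. On that length the steps past the threshold were Adgrf5 above Ednrb, S1pr1 above Aplnr and Aplnr above F2r (exact sign-flip permutation, adjusted p = 0.0156, 0.0417 and 0.0156). The level of Ramp2 depends on the length used, because its merged exons span 3301 bases and its coding transcripts average 720.

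The 9 genes did not share a single pattern across libraries. Likeness was measured as the root mean square difference of log2 values, relative to the library median and centred for each gene, over the 9 libraries. The closest pair was S1pr1 and Adgrf5 at 0.295, followed by Adgrf5 and Adgrl4 at 0.355, and the farthest was Calcrl and Aplnr at 1.22. Of 4706 genes with a mean of at least 20 CPM, those closest to the mean profile of the 9 were Ddx3x (0.0943), Adam17 (0.121), Fabp4 (0.123), Aplp2 (0.132) and Ehd2 (0.147), against a median of 0.599. Fabp4 is also in the adipocyte list.

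Of the S1P list, 7 of 16 genes were in the table and 2 were called higher as deposited (Plpp3 and Plpp1), beside 32.0% of all genes. Neither was called relative to the library median (limma adjusted p = 0.613 for Plpp3 and 0.419 for Plpp1). Plpp3, a phosphatase of extracellular lipids, was at 80.4 ± 35.1 CPM in KO libraries (SD, n = 5) and 27.1 ± 6.15 CPM in WT libraries (SD, n = 4; log2 fold change 1.44, limma adjusted p = 0.0172), and its change was −0.0467 with the endothelial list mean subtracted. Plpp1, of the same family, was at 42.8 ± 21.3 CPM in KO libraries and 11.2 ± 6.06 CPM in WT libraries (log2 fold change 1.83, limma adjusted p = 0.0124). Plpp3 lost its call without KO replicate 3 (limma adjusted p = 0.0561), KO replicate 5 (0.0514) or WT replicate 1 (0.0558), and Plpp1 without WT replicate 1 (0.0544). The S1P exporter gene Spns2, at 29.9 ± 10.5 CPM in KO libraries and 13.4 ± 10.3 CPM in WT libraries, was not called (limma adjusted p = 0.0517), nor were S1pr2, Sphk2, Sgpp1 and Sgpl1.

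Of the LPA list, 5 of 10 genes were in the table and 3 were called higher as deposited, beside 32.0% of all genes, Plpp3 and Plpp1 again among them. The third was Lpar4, another lysophosphatidic acid receptor, with 0.3, 0.96, 8.66, 8.78 and 10.03 CPM in KO replicates 1 to 5 and 0.45, 0, 0 and 0 CPM in WT replicates 1 to 4. These were 81 reads over the KO libraries and 1 read over the WT libraries, so no fold is given, and KO replicates 1 and 2 were near the WT level. Its call (limma adjusted p = 0.0298) was lost without KO replicate 3 (0.0796), KO replicate 4 (0.0678), KO replicate 5 (0.0808), WT replicate 1 (0.0748), WT replicate 2 (0.0554) or WT replicate 3 (0.0665). Relative to the library median 0 genes of the LPA list were called (limma adjusted p = 0.572 for Lpar4). Enpp2, which encodes the LPA-producing enzyme autotaxin, was at 16.8 ± 6.35 CPM in KO libraries and 21.98 ± 29.1 CPM in WT libraries (limma adjusted p = 0.693).

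Around the peptide and protease receptors 1 gene was called as deposited, beside 32.0% of all genes called higher. Ece1, the enzyme that cuts endothelin to its active form, was at 412.2 ± 127 CPM in KO libraries (SD, n = 5) and 188.7 ± 143 CPM in WT libraries (SD, n = 4; log2 fold change 1.35, limma adjusted p = 0.0201), and its change was −0.14 with the endothelial list mean subtracted. The call was lost without KO replicate 3 (limma adjusted p = 0.0518), WT replicate 1 (0.115) or WT replicate 3 (0.0562). Relative to the library median the change of Ece1 was 0.37 (limma adjusted p = 0.665). Edn1 was at 10.2 ± 5.02 CPM in KO libraries and 5.46 ± 4.36 CPM in WT libraries and was not called (limma adjusted p = 0.150). None of the 3 adrenomedullin and CGRP genes, the 1 apelin gene and the 5 thrombin genes in the table was called. Apln had 8.5, 12.9, 10.82, 38.07 and 121.92 CPM in KO replicates 1 to 5, against 4.5, 14.64, 9.45 and 40.86 CPM in WT replicates 1 to 4, with KO replicate 5 highest as it was for Aplnr.

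Among other adhesion receptors, 4 of the 12 in the table were called higher as deposited, and of 24 further receptors found in endothelium 8 were, shares near the 32.0% of all genes. Relative to the library median 0 genes of either list were called, so the changes below are those of the deposited CPM. Adgrg1 was at 97.3 ± 41.1 CPM in KO libraries (SD, n = 5) and 27.9 ± 21.5 CPM in WT libraries (SD, n = 4; log2 fold change 1.91, limma adjusted p = 0.0065). Adgrl2, a latrophilin, was at 91.3 ± 23.2 CPM in KO libraries and 30.5 ± 15.6 CPM in WT libraries (log2 fold change 1.63, limma adjusted p = 0.00918). The further receptors included Fzd4, a Wnt and norrin receptor, at 168 ± 66.9 CPM in KO libraries and 43.5 ± 7.93 CPM in WT libraries (log2 fold change 1.85, limma adjusted p = 0.00456), and the adenosine receptor gene Adora2a (log2 fold change 1.55, limma adjusted p = 0.0182). Adora2a lost its call without KO replicate 3 (limma adjusted p = 0.0614), WT replicate 1 (0.0729) or WT replicate 3 (0.0567).

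Downstream of the receptors, 8 of 17 G protein genes, 5 of 16 desensitisation genes and 9 of 28 effector genes were called higher as deposited, beside 32.0% of all genes. Relative to the library median 0 genes of these lists were called with all libraries and equal weights. The changes below are those of the deposited CPM unless another scale is named. Gng11, a gamma subunit, rose by 1.89 on the log2 scale (SE 0.463, limma adjusted p = 0.00715), and its call was lost without WT replicate 1 (0.0510). The G protein alpha subunit gene Gna11 rose by 1.28 (limma adjusted p = 0.0212) but changed by −0.21 with the endothelial list mean subtracted, and lost its call without KO replicate 3 (0.0509), KO replicate 5 (0.0571), WT replicate 1 (0.0945) or WT replicate 3 (0.0623). Rgs3, which speeds the shut-off of G proteins, rose by 1.75 on the log2 scale (limma adjusted p = 0.00666). The arrestin gene Arrb1 rose by 1.44 (limma adjusted p = 0.0165) but changed by −0.043 with the endothelial list mean subtracted, and lost its call without KO replicate 3 (0.0543) or WT replicate 1 (0.0598). The RhoA exchange factor gene Arhgef12 rose by 1.59 (limma adjusted p = 0.00820), and Prkar1a, a regulatory subunit of protein kinase A, rose by 1.67 (limma adjusted p = 0.00714).

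Plcb2, a phospholipase C gene named after its values were seen, was the only gene of these lists called lower as deposited. It had 15.78, 6.69, 2.16, 6.44 and 2.06 CPM in KO replicates 1 to 5, against 9.9, 19.78, 14.18 and 28.51 CPM in WT replicates 1 to 4. KO replicate 1 lay within the WT range and the other KO libraries lay below it. Plcb2 changed by −1.52 on the log2 scale (SE 0.605, limma adjusted p = 0.0486), and leaving out any library other than KO replicate 1 ended the call (limma adjusted p from 0.0518 to 0.124). Relative to the library median its change was −2.50 (limma adjusted p = 0.0929), and it was called there without KO replicate 1 (−2.86, limma adjusted p = 0.0312) and with array weights (−2.76, limma adjusted p = 0.0297). With all libraries and equal weights limma called no gene of the 11 pathway lists relative to the library median.

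Markers of other cells were present in the captures. The adipocyte list (16 of 16 genes in the table, none at 0) summed to between 10557 and 21713 CPM in KO libraries and between 4581 and 8091 CPM in WT libraries. These sums were above the endothelial sum of the same library in all 9, but Fabp4 alone averaged 8442 CPM over the 9 libraries. The comparison with the endothelial sum therefore rests largely on that gene. Relative to the library median 5 of the 16 adipocyte genes had a change above 0, beside 57.9% of all genes. Their median log2 fold change there was −0.40. The pericyte and smooth muscle list (8 of 13 genes in the table, none at 0) summed to between 377 and 789 CPM in KO libraries and between 172 and 289 CPM in WT libraries. The macrophage list (11 of 12 genes) summed to between 743 and 1594 CPM in KO libraries and between 310.1 and 1226 CPM in WT libraries, and the fibroblast list (11 of 12 genes, Mfap5 at 0 in some libraries) to between 2662 and 13647 CPM in KO libraries and between 3023 and 10012 CPM in WT libraries. Of the lymphatic list 3 of 8 genes were in the table, and Prox1, Pdpn and Ccl21a were not among the listed genes. The part of these cells in the changes of the 9 genes was not tested.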

How the data were processed

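RNA on HA-tagged ribosomes was captured from white adipose tissue and copied with a low-input kit for polyadenylated RNA, followed by tagmentation, per the labels' protocols. The authors deposited CPM for 11802 genes. Per the submitters' processing notes the tools were FastQC 0.11.9, Trimmomatic 0.39, HISAT2 2.1.0, edgeR 3.32.0 and R 4.0.2, with the builds GRCm38 and mm10. The sources used here do not name the read counter, the strand setting or the gene annotation. Symbols, coordinates and exon lengths came from GENCODE M21 (GRCm38), which matched 11787 identifiers.

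The main test was limma 3.58.1 (R 4.3.3) with a trend on log2(CPM + 1), adjusted over all genes, with an adjusted p under 0.05 as a call. Nonzero CPM gave whole reads (100% within 0.1 read in each library), and edgeR 4.0.16 and DESeq2 1.42.0 were run on them as alternatives. Single ratios had exact permutation tests, whose smallest p is 0.00794 (0.00391 for sign flips over 9 libraries). The fits were tested on simulated data with the gene-wise spread of these libraries. No listed gene averaged below 1.77 CPM, so rarer genes are not covered. Each listed partner of the receptors was examined, with the 4 most abundant genes of the other pathway lists. The 9 genes, the lists and the tests were chosen with earlier results of these data known. The alternatives were pseudocounts, filters, scalings, covariates, a replicate block and each library left out.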

Additional observations from a re-analysis of the deposited data

Results flagged for a closer look

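In WT replicate 4 Aplnr was at 27.56 CPM, while the other 3 WT libraries ran from 6.83 to 8.55 CPM, a gap large for the range of the group (Dixon's ratio 0.917). It was the only such value in 48 groups examined, where chance would give about 2.4. WT replicate 4 also had the lowest mitochondrial rRNA share of the WT libraries, 13.6%, and whether this bears on Aplnr was not tested.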

How the results depend on the processing

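In the deposited CPM, 3780 genes and 5 of the 9 were called higher; the genes called were 1932 with a replicate block, 4 with quantile normalisation, 0 with the endothelial list mean subtracted, 21 with mitochondrial rRNA left out of the total, 19 with its share as a covariate, 1 by edgeR with TMM or with DESeq2 size factors, 31 by DESeq2, 2104 by edgeR with library totals (chosen after seeing the data), and 1094 to 5916 with 1 library left out. Of the 9 genes, quantile normalisation, the endothelial scaling, the covariate and edgeR with TMM or DESeq2 size factors called 0, leaving mitochondrial rRNA out called 1 and DESeq2 called 2. Leaving out KO replicate 1 and WT replicate 4 together called 8, all but F2r, beside 5622 genes (47.6%). That pair of libraries was chosen after seeing the data and with no reason from the labels, and relative to the library median the same setting called 0 of the 9.

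Relative to the library median 13 genes were called; there were 4 with a pseudocount of 0.5, 5 at a mean CPM of at least 5, 0 without trend, 63 with array weights, 38 with the replicate block, 0 with the endothelial scaling or the covariate, 8 without KO replicate 1 and WT replicate 4, 5 by edgeR with TMM or DESeq2 size factors, 155 by DESeq2 and 0 to 127 with 1 library left out. Of the 9 genes array weights called 1 (Adgrl4), DESeq2 called 2, and leaving out 1 library called 0 to 1.

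Some deposited log2 changes changed sign, and the cause was not tested. With quantile normalisation they were −0.027 for Lpar6, −0.14 for Ednrb, −0.0397 for Aplnr and −0.14 for F2r. With the endothelial list mean subtracted, on either scale, they were −0.53 for Lpar6, −0.14 for Ramp2, −0.66 for Ednrb, −0.54 for Aplnr, −0.58 for F2r, −0.043 for Arrb1, −0.14 for Ece1, −0.21 for Gna11 and −0.0467 for Plpp3. The covariate gave −0.57 for Ednrb and −0.19 for Aplnr. For Lpar6 edgeR gave −0.12 with either scaling; for Ednrb it gave −0.27 with TMM and −0.26 with DESeq2 size factors, and DESeq2 gave −0.26.

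Relative changes near 0 changed sign too. Lpar6 was 0.0044 with a pseudocount of 5, 0.26 with the covariate and 0.060 without KO replicate 1 and WT replicate 4. Ednrb was 0.12 with array weights and 0.15 without those libraries. Aplnr was 0.016 with a pseudocount of 5, 0.19 with array weights, 0.60 without those libraries, 0.18 by edgeR with TMM and 0.19 with DESeq2 size factors. F2r was 0.069 without those libraries, 0.088 by edgeR with TMM and 0.096 with DESeq2 size factors. The ratio of Ednrb to Edn1 was 0.14 with a pseudocount of 5.

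With 1 library left out the relative changes ran from −0.28 to 0.22 for Lpar6, −0.50 to 0.040 for Ednrb, −0.40 to 0.37 for Aplnr and −0.38 to 0.10 for F2r, and the ratios from −0.62 to 0.018 for Ednrb to Edn1, −0.13 to 0.53 for Aplnr to Apln, −0.41 to 0.30 for F2r to Thbd and −0.48 to 0.11 for Ramp2 to Pecam1. Neighbouring steps of the level order past the threshold numbered 0 to 3. Whether the replicate numbers pair the libraries is not known from the labels. Deviations from the group means correlated at 0.0215, −0.0649, −0.0791 and 0.195 between libraries of the same number. Between libraries of different numbers they correlated at −0.148 to 0.180. The replicate block ended the deposited calls of Ramp2 (limma adjusted p = 0.0618), Gna11 (0.0626), Plpp3 (0.0558), Lpar4 (0.0881) and Plcb2 (0.120). Limma without trend ended those of Ramp2 (0.0510), Ece1 (0.0615), Gna11 (0.0568) and Plcb2 (0.0510). Array weights called Ednrb (limma adjusted p = 0.0332) and Aplnr (0.0275) as deposited, beside 5477 genes (46.4%). DESeq2 gave no adjusted p for Calcrl, F2r, Aplnr and Lpar6, which are not compared there. Few reads limit Calcrl in WT libraries, at 4 to 15 reads per library. Reads in WT libraries were also few for F2r (11 to 18), Aplnr (13 to 29) and Lpar6 (11 to 34).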
